A study of Homo sapiens with 6 samples.

Results

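The 49 mRNAs that encode the MRPL proteins of the mitochondrial large ribosomal subunit were followed in RNA recovered with the FERRY complex. This family was chosen with earlier results of these data known. Its members were set by name alone, as the protein-coding genes whose symbol is MRPL followed by a number. The deposited table of read counts held 60676 gene IDs. In GST-Ferry pulldowns the FERRY complex fused to glutathione S-transferase was the bait, and in GST pulldowns the tag alone was the bait. Both baits were held on glutathione resin and incubated for 1.5 h with fresh lysate of suspension HEK 293, an established cell line derived from human embryonic kidney. Each bait gave 3 libraries of RNA depleted of ribosomal RNA, and no library of input lysate was analysed here. Comparisons are therefore between the baits, and a level with one bait is not the level in the cell. Levels are shares of the RNA recovered, so a larger share and a larger amount recovered cannot be told apart.

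Mitochondrial ribosomes translate the few proteins that the mitochondrial genome encodes, which are subunits of the respiratory chain and of ATP synthase. Their RNA comes from the mitochondrial genome, but all their proteins are encoded in the nucleus, made on cytosolic ribosomes and imported. The large subunit holds the peptidyl transferase centre, the tunnel through which the new chain leaves, the stalk that recruits translation factors and the central protuberance at the contact with the small subunit. FERRY is an effector of RAB5, the GTPase of early endosomes, and its subunits are TBCK, PPP1R21, C12orf4, CRYZL1 and GATD1.

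The coding starts of 4 MRPL mRNAs are shown because the fold changes described below tended to be higher where more codons had G or C at the third position. MRPL41 and MRPL12 were the enriched members, and MRPL42 and MRPL1 had the lowest share of G or C there. MRPL1 went against that trend, with a log2 fold change of 0.37 ± 0.24 (SE), about the median of the list. MRPL42 was at -0.34 ± 0.31 (SE). The 2 pairs were picked by different measures, fold change and composition, so they do not show the trend by themselves. After MRPL41, the members richest in G or C at the third position were MRPL57, MRPL34, MRPL28 and MRPL43. Their log2 fold changes were 0.31, 0.36, 0.83 and 0.34. Each line gives the first 90 coding bases, 5′ to 3′, of the representative GENCODE 29 transcript (GRCh38), and capitals mark a G or C at the third position of a codon.
MRPL41: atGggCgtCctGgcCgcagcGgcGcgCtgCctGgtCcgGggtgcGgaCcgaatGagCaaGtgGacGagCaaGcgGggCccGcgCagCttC
MRPL12: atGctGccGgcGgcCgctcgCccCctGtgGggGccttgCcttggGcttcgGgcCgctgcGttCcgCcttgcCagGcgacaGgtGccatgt
MRPL42: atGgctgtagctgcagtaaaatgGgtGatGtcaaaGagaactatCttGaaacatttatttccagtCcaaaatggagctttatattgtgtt
MRPL1: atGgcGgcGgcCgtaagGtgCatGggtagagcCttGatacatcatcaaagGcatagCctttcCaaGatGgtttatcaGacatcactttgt
Of the 30 codons shown, 27 ended in G or C in MRPL41, 21 in MRPL12, 8 in MRPL42 and 15 in MRPL1. Over the whole coding sequence, GC3, the share of codons with G or C at the third position, was 90.6% in MRPL41, 74.4% in MRPL12, 30.1% in MRPL42 and 31.0% in MRPL1. MRPL41 lies on chromosome 9 (137551199 to 137552555, plus strand), MRPL12 on chromosome 17 (81703357 to 81707526, plus strand), MRPL42 on chromosome 12 (93467488 to 93516213, plus strand) and MRPL1 on chromosome 4 (77862520 to 77952790, plus strand).

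The GST-Ferry libraries held 2454538 to 6532665 counts and the GST libraries 7390346 to 10466520. Tested MRPL mRNAs had a median of 123 to 307.5 counts in a GST-Ferry library and of 279.5 to 449 in a GST library. Within the GST libraries, both pairs with GST 3 differed far more (chi-square per degree of freedom 53.3 and 57.4) than GST 1 and 2 did (12.2). In the GST-Ferry libraries the pairs with GST-Ferry 1 stood at 17.4 and 26.2, and GST-Ferry 2 and 3 at 4.85, a measure that also grows with depth. The genes of the 5 bait subunits together accounted for 0.249%, 2.72% and 5.35% of the reads counted in GST-Ferry 1, 2 and 3. In the GST libraries they accounted for 0.0359% to 0.0504%. PPP1R21, C12orf4 and TBCK were higher with GST-Ferry, with log2 fold changes of 8.83, 6.73 and 5.30. CRYZL1 and GATD1 were not, at -0.50 and 0.12, with overlapping groups. Of markers known from HEK 293 cells, PAX2, LHX1, NEFM, NEFL, VIM, KRT8 and KRT18 all had counts in each library. NEFL, VIM, KRT8 and KRT18 were higher with GST-Ferry without overlap, like 17 MRPL mRNAs, while PAX2, LHX1 and NEFM overlapped. KRT18 passed the test used for the MRPL mRNAs, with a log2 fold change of 1.18 (adjusted p = 0.0427, edgeR quasi-likelihood F test). CD3E and HBB had 0 counts throughout, PTPRC had at most 2 and ALB at most 4, while the fibroblast gene COL1A1 averaged 53.4 CPM with GST-Ferry and 33.6 CPM with GST.

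Most MRPL mRNAs had a somewhat larger share of the RNA recovered with GST-Ferry, and 2 of them, MRPL41 and MRPL12, were enriched past the threshold. Of the 48 that had enough reads to be tested, 39 had a log2 fold change (GST-Ferry over GST) above 0 and 9 below 0. The median was 0.36, with the middle of the list between 0.20 and 0.55, beside a median of -0.03 over all 15546 genes tested. Above 0 stood 47.8% of all genes tested and 52.0% of the protein-coding genes tested, whose median was 0.02. Enriched means a Benjamini-Hochberg adjusted p under 0.05 in the quasi-likelihood F test of edgeR. Among all genes tested, 0.592% were enriched and 0.0322% depleted. No MRPL mRNA was depleted by this test, which depleted 5 genes in all, or by DESeq2, which depleted 179 of 11760. With limma-voom 0 genes of the whole table were depleted, so that fit carries no information on this point. Before adjustment, 16 members were higher at a p under 0.05, beside 11.3% of all genes tested, and 0 were lower, beside 8.05%. With the threshold for the adjusted p raised to 0.1, 5 members passed (MRPL12, MRPL28, MRPL37, MRPL40 and MRPL41), beside 3.62% of all genes tested.

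All 3 GST-Ferry values lay above all 3 GST values for 17 of the 48 tested members, beside 15.0% of all genes tested and 17.5% of the protein-coding genes tested. The reverse held for 0 members, beside 12.1% of all genes tested. The 17 were MRPL3, MRPL4, MRPL11, MRPL12, MRPL14, MRPL16, MRPL17, MRPL18, MRPL23, MRPL28, MRPL37, MRPL39, MRPL40, MRPL41, MRPL48, MRPL51 and MRPL58. Summed over all 49 members, MRPL mRNAs held 0.271% (95% Wilson interval 0.267% to 0.275%), 0.319% (0.313% to 0.326%) and 0.298% (0.292% to 0.305%) of all counts in GST-Ferry 1, 2 and 3. In GST 1, 2 and 3 they held 0.222% (0.219% to 0.226%), 0.246% (0.243% to 0.249%) and 0.242% (0.239% to 0.246%). These shares of the raw library totals averaged 0.296% ± 0.0243 with GST-Ferry and 0.237% ± 0.0126 with GST (SD, n = 3 each) and did not overlap, and the intervals cover counting error only. After TMM scaling the sums did overlap, at 2575, 3382 and 3173 CPM in GST-Ferry 1, 2 and 3, against 2019, 2333 and 2624 CPM in GST 1, 2 and 3, since GST-Ferry 1 lay below GST 3.

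**Figure D1:**
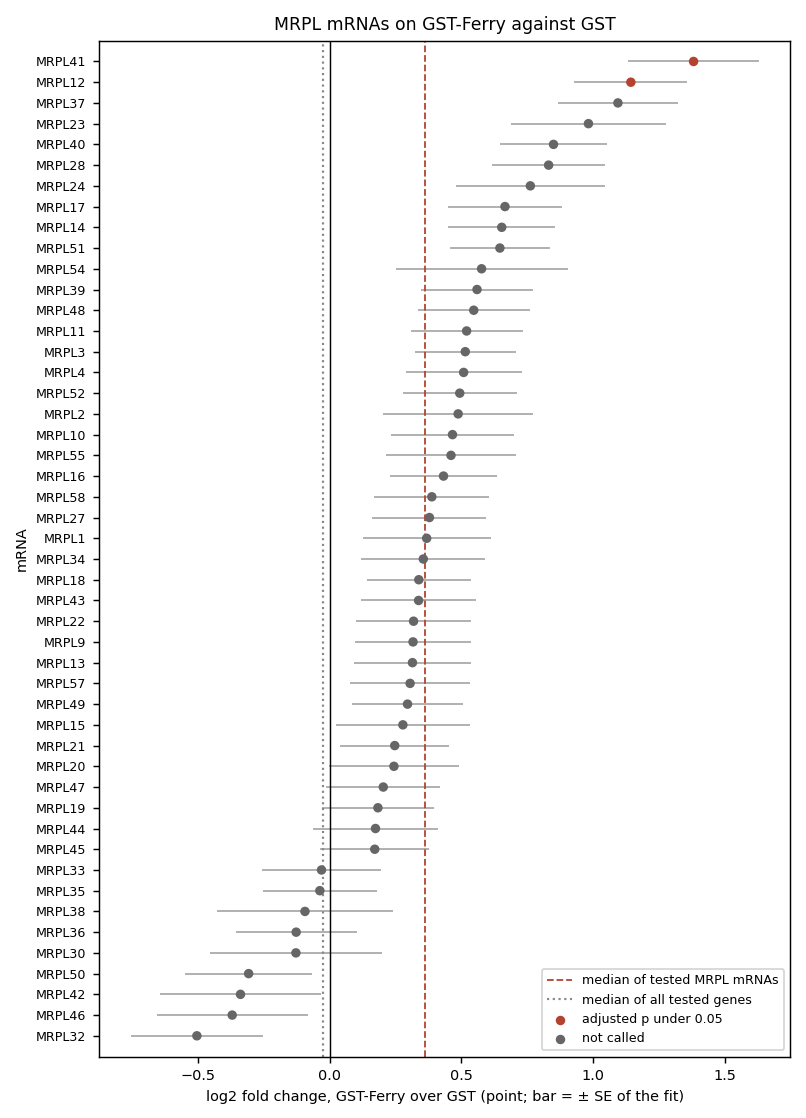
Log2 fold change of GST-Ferry over GST (x axis) for each of the 48 tested MRPL mRNAs (y axis), with the SE of the fit as bars, the 2 enriched mRNAs in red, and dashed and dotted lines at the medians of the MRPL mRNAs and of all tested genes. A reader should see 39 points to the right of 0, led by MRPL41 and MRPL12, and 9 to the left, the lowest being MRPL32.

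MRPL41, a protein of the mitochondrial ribosome without a bacterial homologue, had the largest fold change of the list. It had 48.5, 56.3 and 71.5 CPM (counts per 1000000 counts of the scaled library) in GST-Ferry 1, 2 and 3, against 28.2, 22.7 and 16.0 CPM in GST 1, 2 and 3. Every GST-Ferry library was above every GST library, and the mean was 58.8 ± 11.7 CPM with GST-Ferry and 22.3 ± 6.13 CPM with GST (SD, n = 3 each). This was a 2.60-fold rise, a log2 fold change of 1.38 ± 0.25 (SE; adjusted p = 0.042, edgeR quasi-likelihood F test, Benjamini-Hochberg adjusted). No exon of another annotated gene overlapped MRPL41.

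MRPL12, the counterpart of the bacterial stalk protein that recruits translation factors, was the other enriched member. It had 43.5, 66.2 and 52.4 CPM in GST-Ferry 1, 2 and 3, against 25.3, 24.7 and 22.7 CPM in GST 1, 2 and 3. The GST values were tight and lay well below the lowest GST-Ferry value. The log2 fold change was 1.14 ± 0.21 (SE; adjusted p = 0.045, edgeR quasi-likelihood F test, Benjamini-Hochberg adjusted), a 2.21-fold rise. An annotated gene that overlaps MRPL12 on the same strand had 0 CPM in both baits, but how reads that match both were assigned is not known here.

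Both calls lay close to the threshold. Neither held under RLE scaling (adjusted p = 0.0518 for MRPL41 and 0.0532 for MRPL12 by the edgeR test), with library sizes alone (0.0721 for both), with limma-voom (0.0573 and 0.0601) and with offsets for length and GC content (0.0516 and 0.0833). These 4 fits enriched 0.0708%, 0.045%, 0.0901% and 0.933% of all genes tested, in the same order, against 0.592% as reported. Over the 17 alternatives the log2 fold change ranged from 0.92 to 1.57 for MRPL41 and from 0.82 to 1.29 for MRPL12. Without GST 2, GST-Ferry 2 or GST-Ferry 3, 0 MRPL mRNAs were called by the edgeR test. These fits enriched only 0.0191%, 0% and 0.0184% of all genes tested, so 0 members there says little about the list. Without GST 1 only MRPL41 was called, beside 0.398% of all genes tested. Without GST 3 the count was 9, beside 4.45% of all genes tested, and without GST-Ferry 1 it was 3, beside 0.675%. Leaving out GST 3 and GST-Ferry 1 together gave 22, in a fit that called 11.5% of all genes tested enriched.

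Just behind came MRPL37, a protein specific to the mitochondrial ribosome, with 175, 302 and 283 CPM in GST-Ferry 1, 2 and 3, against 121, 127 and 106 CPM in GST 1, 2 and 3. The groups did not overlap, but GST-Ferry 1 lay much nearer to the GST libraries than GST-Ferry 2 and 3 did. Its log2 fold change of 1.09 ± 0.23 (SE) just missed the threshold (adjusted p = 0.0507, edgeR quasi-likelihood F test, Benjamini-Hochberg adjusted). It was called with DESeq2 (adjusted p = 0.0012), with the offsets for length and GC content (adjusted p = 0.0477 by the edgeR test) and without GST-Ferry 1 (adjusted p = 0.0376 by the edgeR test). Exons of SSBP3 and CYB5RL overlap MRPL37 on the opposite strand, so reads could be shared if strand was not used in counting.

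MRPL23, which lines the exit of the peptide tunnel, had 15.3, 23.0 and 16.9 CPM in the GST-Ferry libraries and 9.47, 11.7 and 6.16 CPM in the GST libraries. The groups did not overlap, and the log2 fold change was 0.98 ± 0.29 (SE; adjusted p = 0.113, edgeR quasi-likelihood F test, Benjamini-Hochberg adjusted). MRPL40, of the central protuberance, had 58.1, 65.8 and 69.8 CPM in the GST-Ferry libraries and 30.4, 41.4 and 35.2 CPM in the GST libraries. Its GST-Ferry values were the most even of the 6 highest members, with a log2 fold change of 0.85 ± 0.20 (SE; adjusted p = 0.067, edgeR quasi-likelihood F test, Benjamini-Hochberg adjusted). MRPL28, with a bacterial homologue, had 68.4, 89.6 and 88.4 CPM in the GST-Ferry libraries and 48.5, 52.9 and 36.1 CPM in the GST libraries. These groups also did not overlap, and the log2 fold change was 0.83 ± 0.21 (SE; adjusted p = 0.083, edgeR quasi-likelihood F test, Benjamini-Hochberg adjusted). MRPL28 and MRPL40 were both called with DESeq2, which called 5 members in all, beside 4.35% of all genes it tested.

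**Figure D2:**
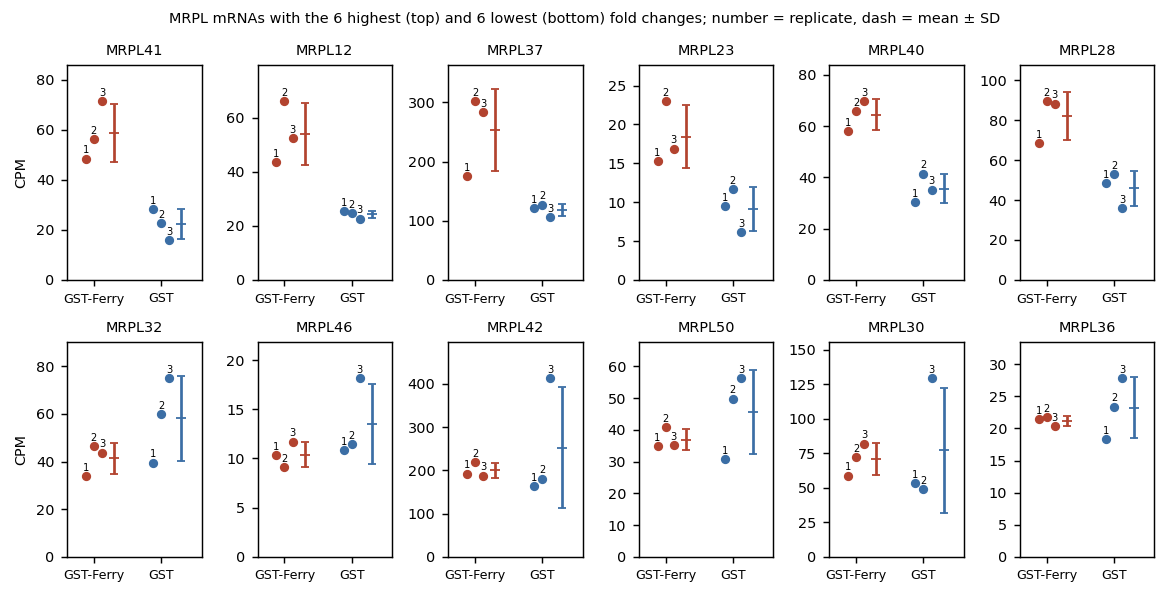
CPM (y axes, each from 0) of the 6 MRPL mRNAs with the highest fold change (top row) and the 6 with the lowest (bottom row) in GST-Ferry libraries (red) and GST libraries (blue), with the replicate number at each point and the mean ± SD beside it. All top-row mRNAs have GST-Ferry points above all GST points, while in the bottom row the groups overlap and GST 3 is the highest GST library.

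At the other end, the 6 lowest members were MRPL32, MRPL46, MRPL42, MRPL50, MRPL30 and MRPL36, and none passed the test. MRPL32, whose maturation is known to depend on a mitochondrial protease, had 33.8, 46.4 and 43.8 CPM in GST-Ferry 1, 2 and 3, against 39.4, 59.9 and 75.1 CPM in GST 1, 2 and 3. The groups overlapped, with a log2 fold change of -0.50 ± 0.25 (SE; adjusted p = 0.291, edgeR quasi-likelihood F test, Benjamini-Hochberg adjusted). MRPL46, of the central protuberance, had 10.3, 9.12 and 11.7 CPM in the GST-Ferry libraries and 10.8, 11.4 and 18.2 CPM in the GST libraries. Both stayed below 0 under all 17 alternatives, but the size varied. MRPL46 was at -0.37 with all libraries, -0.13 without GST 3 and -0.10 with library weights, and MRPL32 was at -0.32 without GST 3 and -0.14 without GST 3 and GST-Ferry 1.

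For 2 of the low members, MRPL42 and MRPL30, the direction changed when GST 3 was left out, and also under other alternatives given below. MRPL42, specific to mitochondria, had 192, 219 and 188 CPM in GST-Ferry 1, 2 and 3, against 163, 181 and 414 CPM in GST 1, 2 and 3. GST 3 stood far above every other library, and the log2 fold change was -0.34 with it and 0.19 without it. MRPL30 had 58.8, 72.1 and 81.9 CPM in the GST-Ferry libraries and 53.5, 49.0 and 130 CPM in the GST libraries, again with GST 3 far above the rest. Its log2 fold change was -0.13 with GST 3 and 0.43 without it, and with GST-Ferry 1 left out as well it was 0.59 (adjusted p = 0.0177, edgeR quasi-likelihood F test, Benjamini-Hochberg adjusted). Among the 9 members below 0, 7 had their highest GST value in GST 3, beside 25 of all 48 tested members.

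MRPL50 had 34.8, 40.8 and 35.1 CPM in the GST-Ferry libraries and 30.6, 49.9 and 56.3 CPM in the GST libraries, with a log2 fold change of -0.31 ± 0.24 (SE) that was -0.16 without GST 3. MRPL36, the counterpart of a small zinc-binding bacterial protein, had 21.4, 21.8 and 20.4 CPM in the GST-Ferry libraries and 18.4, 23.4 and 27.9 CPM in the GST libraries. Its GST-Ferry values were nearly level and lay inside the GST range. MRPL53, a protein placed at the stalk, was the member with too few reads to test, with 0, 1 and 1 counts in GST-Ferry 1, 2 and 3, against 2, 5 and 1 counts in GST 1, 2 and 3. Its exons overlap those of CCDC142 on the same strand, so reads that match both may have been assigned elsewhere or dropped, and MRPL53 is reported as uncertain.

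By place in the subunit, the log2 fold changes were above 0 for all tested members of the stalk (4), of the exit tunnel (6) and around the peptidyl transferase centre (3). These groups are small, 39 of all 48 tested members were above 0, and differences between places were not tested. The 4 tested stalk members had a median log2 fold change of 0.55, from 0.47 for MRPL10, the stalk base protein, to 1.14 for MRPL12. MRPL10 had 52.1, 90.0 and 80.2 CPM in the GST-Ferry libraries and 45.4, 59.9 and 54.1 CPM in the GST libraries, so GST-Ferry 1 fell inside the GST range. MRPL11, also of the stalk base, had 50.2, 61.0 and 69.8 CPM in the GST-Ferry libraries and 34.9, 42.2 and 48.5 CPM in the GST libraries, without overlap. MRPL54 overlapped between the baits and was low in GST 1, with a log2 fold change of 0.58 ± 0.33 (SE) that was 0.26 without GST 1 and 0.83 without GST 3.

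Around the exit of the tunnel, the 6 members had a median log2 fold change of 0.49. Their log2 fold changes ran from 0.17 for MRPL45, which tethers the ribosome to the inner membrane, to 0.98 for MRPL23. MRPL24 had 54.7, 105 and 105 CPM in the GST-Ferry libraries and 43.1, 69.6 and 41.8 CPM in the GST libraries, where GST-Ferry 1 lay below GST 2. MRPL17 had 51.2, 66.2 and 71.5 CPM in the GST-Ferry libraries and 34.8, 47.9 and 35.5 CPM in the GST libraries, without overlap. Neither passed the test (adjusted p = 0.179 for MRPL24 and 0.137 for MRPL17, edgeR quasi-likelihood F test, Benjamini-Hochberg adjusted).

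The 3 members around the peptidyl transferase centre, MRPL2, MRPL3 and MRPL16, had log2 fold changes of 0.49, 0.51 and 0.43. MRPL3 was among the most abundant members, with 209, 251 and 228 CPM in the GST-Ferry libraries and 152, 146 and 183 CPM in the GST libraries, without overlap. The 7 members of the central protuberance were split, with MRPL40, MRPL48, MRPL55, MRPL27 and MRPL18 between 0.34 and 0.85 and MRPL38 and MRPL46 at -0.09 and -0.37. MRPL48 had 26.6, 36.5 and 32.5 CPM in the GST-Ferry libraries and 21.9, 22.1 and 20.8 CPM in the GST libraries, which were tight and below all GST-Ferry values.

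Among the other members whose groups did not overlap, MRPL4 had 71.8, 93.9 and 86.2 CPM in the GST-Ferry libraries and 65.0, 67.4 and 43.7 CPM in the GST libraries. MRPL58, a peptidyl-tRNA hydrolase built into the ribosome, had 22.7, 29.7 and 29.9 CPM in the GST-Ferry libraries and 19.1, 22.4 and 20.7 CPM in the GST libraries. For both, the gap between the baits was small, with log2 fold changes of 0.51 ± 0.22 and 0.39 ± 0.22 (SE). MRPL16 and MRPL18 had a gap of the same kind, with log2 fold changes of 0.43 ± 0.20 and 0.34 ± 0.20 (SE).

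MRPL15, MRPL43 and MRPL52, like MRPL10, MRPL24 and MRPL54 above, overlapped between the baits but were called when limma-voom weighted the libraries. That fit called 19 members and 10.4% of all genes tested enriched. MRPL52 had 41.2, 59.5 and 59.8 CPM in GST-Ferry 1, 2 and 3, against 32.3, 39.3 and 41.3 CPM in GST 1, 2 and 3, so that only GST-Ferry 1 touched the GST range. MRPL43 had 45.9, 54.3 and 57.6 CPM in the GST-Ferry libraries and 33.3, 40.0 and 51.2 CPM in the GST libraries, where GST 3 reached above GST-Ferry 1. MRPL15 had 37.0, 51.1 and 52.4 CPM in the GST-Ferry libraries and 28.8, 33.6 and 52.8 CPM in the GST libraries, with GST 3 the highest of all. With equal weights the log2 fold change was 0.49 ± 0.22 for MRPL52, 0.34 ± 0.22 for MRPL43 and 0.28 ± 0.26 for MRPL15 (SE). Without GST 3 it was 0.53, 0.48 and 0.53 in the same order, and without GST-Ferry 1 it was 0.67, 0.44 and 0.44.

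Most remaining members sat between 0.17 and 0.38 with overlapping groups. MRPL9, MRPL13, MRPL21, MRPL49 and MRPL57 lay between 0.25 and 0.32. MRPL20, with 97.7, 128 and 123 CPM in the GST-Ferry libraries and 98.8, 129 and 65.2 CPM in the GST libraries, had a log2 fold change of 0.24 ± 0.25 (SE) with GST 3 and of -0.0040 without it. MRPL19, among the more abundant, had 106, 103 and 99.2 CPM in the GST-Ferry libraries and 83.0, 73.1 and 116 CPM in the GST libraries, so all GST-Ferry values lay inside the GST range. MRPL33 and MRPL35, which have bacterial homologues, were at -0.03 ± 0.22 and -0.04 ± 0.22 (SE), with values between 22.4 and 37.4 CPM in all 6 libraries.

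Exons of another annotated gene overlap those of 24 of the 49 members, on the same strand for 10 and on the opposite strand for 17, and the partner was itself tested for 15. MRPL28 shares exon sequence with PGAP6 on its own strand (51.7 CPM with GST-Ferry and 38.3 CPM with GST), and MRPL33 with BABAM2. The libraries were strand-specific, but how strand entered the counting is not known here, and these members carry that uncertainty.

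Proteins with a bacterial homologue and proteins specific to mitochondria had nearly the same median. It was 0.36 for the 30 tested members with a bacterial homologue, 25 of them above 0, and 0.36 for the 18 tested members specific to mitochondria, 14 of them above 0. Each class held 1 enriched member. The difference between the classes was not tested.

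Per kilobase of annotated exon, the most abundant members with GST were MRPL51, MRPL3, MRPL37 and MRPL14. This length merges the exons of all annotated transcripts, so the order depends on the annotation and may differ from that per mRNA length. MRPL42 had the highest mean with GST, at 252 CPM, but 15.4 CPM per kilobase over 16393 annotated bases. The levels of MRPL51, MRPL3, MRPL37 and MRPL14 were 94.9 ± 10.7, 84.5 ± 7.85, 99.4 ± 26.9 and 69.1 ± 11.7 CPM per kilobase with GST-Ferry, in that order. With GST they were 60.5 ± 5.93, 59.0 ± 7.40, 46.4 ± 4.26 and 43.7 ± 3.64 CPM per kilobase (SD, n = 3 each). The levels of MRPL51 and MRPL3 with GST differed by less than their spread, as did those of MRPL37 and MRPL14. MRPL51 had 128, 159 and 154 CPM in the GST-Ferry libraries and 83.6, 102 and 96.2 CPM in the GST libraries, and MRPL14 had 53.6, 74.9 and 70.2 CPM in the GST-Ferry libraries and 38.7, 41.3 and 45.6 CPM in the GST libraries. The baits did not overlap for either mRNA, but neither passed the test (adjusted p = 0.111 for MRPL51 and 0.125 for MRPL14, edgeR quasi-likelihood F test, Benjamini-Hochberg adjusted).

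The shift differed between the GST-Ferry libraries. Relative to the mean of the GST libraries, the median member stood at 0.15, 0.58 and 0.48 (log2) in GST-Ferry 1, 2 and 3, against -0.17, 0.08 and 0.11 in GST 1, 2 and 3. GST-Ferry 1 thus lay close to GST 3, and it held the lowest GST-Ferry value of 37 of the 48 tested members. Without GST-Ferry 1 the median log2 fold change of the list was 0.50, and without GST 3 and GST-Ferry 1 it was 0.56. The share of reads from the bait genes also differed between these libraries, as given above. Its part in the fold changes was not tested. With the 5 bait genes removed, the median stayed at 0.36 and the same 2 members were called. That fit differs only by the rows of these 5 genes, so it is no test of the bait share.

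**Figure D3:**
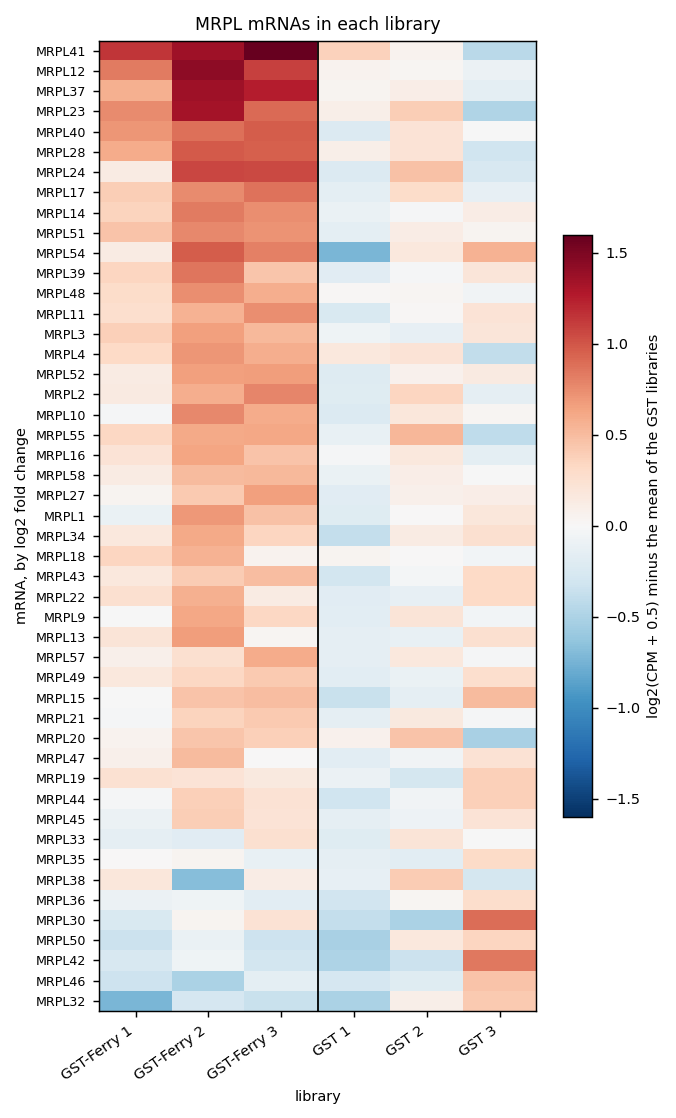
Level of each tested MRPL mRNA (rows, from the highest to the lowest fold change) in each library (columns), as log2(CPM + 0.5) minus the mean of the GST libraries. Most rows are red in GST-Ferry 2 and 3 and paler in GST-Ferry 1, and MRPL30 and MRPL42 are red in GST 3.

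Fold changes within the list varied with the base composition of the coding sequence, as they did over all genes. Across the 48 tested members, GC3 and the log2 fold change had a Pearson r of 0.47 and a Spearman rho of 0.45. Across 12859 protein-coding genes tested, Pearson r was 0.52 and Spearman rho 0.55. These are correlations across genes, which share libraries and are not replicates, so they carry no p. Leaving out MRPL41 and MRPL12 gave a Pearson r of 0.38 over the other 46 members. Across the members, Pearson r was 0.09 with the log2 length of the coding sequence and -0.43 with the log2 annotated exon length (Spearman rho -0.35). Across the protein-coding genes tested, these Pearson r were -0.18 and -0.31.

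When all protein-coding genes were divided into quartiles by GC3, the medians of the MRPL mRNAs lay above those of all genes in each. In the quartile poorest in G and C (22.1% to 44.0%), the 9 MRPL mRNAs had a median log2 fold change of 0.28, against -0.28 for all 3215 genes. In the richest quartile (73.4% to 98.8%), the 12 MRPL mRNAs had a median of 0.49, against 0.34 for all 3215 genes. The quartiles between them held 16 and 11 MRPL mRNAs, with medians of 0.28 and 0.49, against -0.09 and 0.16 for all genes. MRPL41 stood near the top of the scale, with 1.28% of genes at or above its GC3. MRPL42 stood near the bottom, with 1.43% of genes at or below its GC3.

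With offsets for annotated exon length and transcript GC content fitted in each library, the median of the list stayed at 0.36, beside 0.03 for all genes, and 44 of 48 members were above 0. The correlation with GC3 was then -0.06 (Pearson), which largely follows from the offsets, since they remove the trend with transcript GC content. Under these offsets 0.933% of all genes tested were enriched, and the called members were MRPL3 (log2 fold change 0.69, adjusted p = 0.049), MRPL37 (0.90, adjusted p = 0.0477) and MRPL39 (0.83, adjusted p = 0.0457) by edgeR quasi-likelihood F test, Benjamini-Hochberg adjusted. MRPL39, specific to mitochondria and with a GC3 of 39.5%, had 49.9, 71.8 and 53.7 CPM in the GST-Ferry libraries and 34.6, 38.8 and 45.2 CPM in the GST libraries. Its groups did not overlap, and without the offsets its log2 fold change was 0.56 ± 0.21 (SE; adjusted p = 0.186 by the edgeR test). MRPL41 and MRPL12 had log2 fold changes of 0.92 and 0.82 under the offsets.

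**Figure D4:**
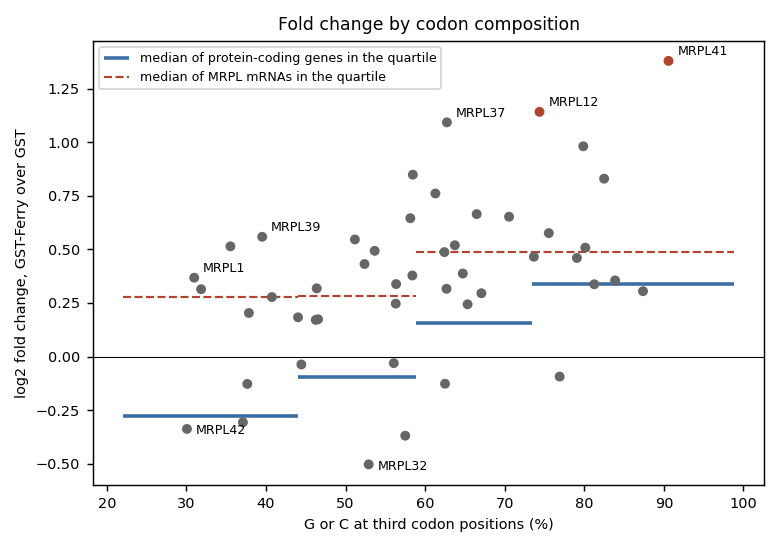
Log2 fold change of GST-Ferry over GST (y axis) against GC3 (x axis, percent of codons with G or C at the third position) for the 48 tested MRPL mRNAs (points, the 2 enriched ones in red), with the quartile medians of all protein-coding genes (blue lines) and of the MRPL mRNAs (dashed red lines). Both sets of medians are higher at the right, and the gap between them is widest in the quartile at the left, at 0.28 against -0.28.

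The 3 large-subunit proteins with other symbols had log2 fold changes above 0, and none passed the test. GADD45GIP1, a large-subunit protein also known as CRIF1, had 33.2, 44.8 and 50.7 CPM in the GST-Ferry libraries and 26.8, 20.6 and 15.0 CPM in the GST libraries, without overlap. Its log2 fold change was 1.02 ± 0.26 (SE; adjusted p = 0.078, edgeR quasi-likelihood F test, Benjamini-Hochberg adjusted). MRPS18A and MRPS30, named for the small subunit but part of the large one, had log2 fold changes of 0.57 ± 0.26 and 0.09 ± 0.22 (SE).

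Of the 26 tested MRPS mRNAs of the small subunit, the edgeR test and limma-voom called 0, in fits that enriched 0.592% and 0.0901% of all genes tested. DESeq2 called 4 (MRPS34, MRPS2, MRPS26 and MRPS12), beside 4.35% of all genes it tested. Before adjustment 10 were higher and 0 lower at a p under 0.05, beside 11.3% and 8.05% of all genes tested. A log2 fold change above 0 was found for 19 of them, beside 47.8% of all genes tested. Their median was 0.32, beside 0.36 for the MRPL mRNAs, and no test of that difference was made. The largest was MRPS34, with 91.3, 118 and 125 CPM in the GST-Ferry libraries and 67.3, 56.7 and 36.1 CPM in the GST libraries, a log2 fold change of 1.05 ± 0.25 (SE; adjusted p = 0.065, edgeR quasi-likelihood F test, Benjamini-Hochberg adjusted).

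Factors that assemble the large subunit had a median of 0.35, with 14 of 18 tested members above 0. The edgeR test and limma-voom called 0 of them and DESeq2 3 (MRM3, MPV17L2 and RCC1L), beside 0.592%, 0.0901% and 4.35% of all genes enriched. Before adjustment 7 were higher and 0 lower at a p under 0.05, beside 11.3% and 8.05% of all genes tested. All GST-Ferry values lay above all GST values for 6 and below them for 2 (NSUN4 and MTERF4), beside 15.0% and 12.1% of all genes tested. MPV17L2, a membrane protein that helps to assemble mitochondrial ribosomes, had the largest change, with 18.2, 19.4 and 27.3 CPM in the GST-Ferry libraries and 12.1, 9.07 and 7.48 CPM in the GST libraries (log2 fold change 1.15 ± 0.27, SE; adjusted p = 0.066, edgeR quasi-likelihood F test, Benjamini-Hochberg adjusted). Mitochondrial translation factors had a median of 0.00, with 9 of 17 above 0. The edgeR test and limma-voom called 0 of them and DESeq2 called TUFM, beside the same shares of all genes enriched. Before adjustment 2 (11.8%) were higher at a p under 0.05, near the 11.3% of all genes tested, and 0 were lower, beside 8.05%. The elongation factor TUFM had the largest change among them, with 231, 354 and 315 CPM in the GST-Ferry libraries and 166, 180 and 120 CPM in the GST libraries (log2 fold change 0.94 ± 0.23, SE; adjusted p = 0.07, edgeR quasi-likelihood F test, Benjamini-Hochberg adjusted). LRPPRC, which stabilises mitochondrial mRNAs, had 295, 443 and 357 CPM in the GST-Ferry libraries and 289, 335 and 526 CPM in the GST libraries.

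RPL mRNAs of the cytosolic large subunit had a median of -0.08, with 15 of 47 tested members above 0. The edgeR test and limma-voom called 0 of them, in fits that enriched 0.592% and 0.0901% of all genes tested and depleted 0.0322% and 0%. DESeq2 called RPL26 lower, in a fit that depleted 179 of 11760 genes. Before adjustment 1 was higher and 4 lower at a p under 0.05, beside 11.3% and 8.05% of all genes tested. For none of them did all GST-Ferry values lie above all GST values, beside 17 of 48 MRPL mRNAs and 15.0% of all genes tested. For 2 RPL mRNAs (RPL36A and RPL17) all GST-Ferry values lay below all GST values, beside 0 MRPL mRNAs and 12.1% of all genes tested. The differences between lists were not tested.

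**Figure D5:**
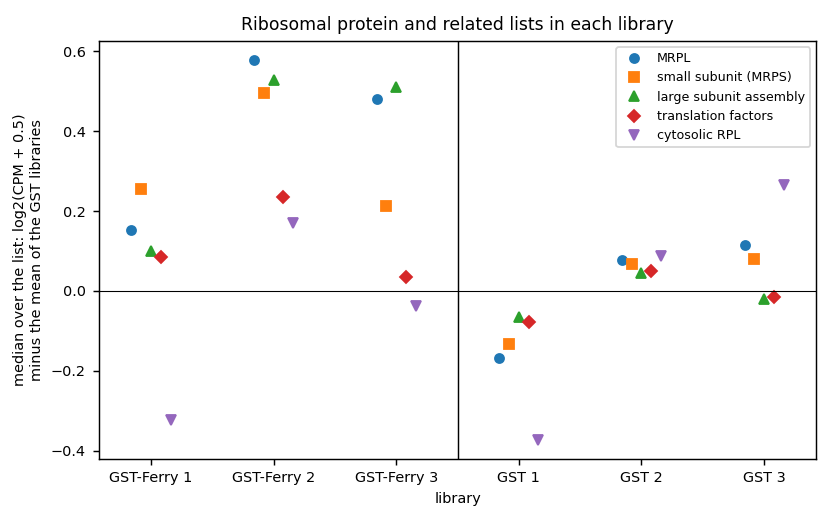
Median over each list (y axis, log2(CPM + 0.5) minus the mean of the GST libraries) in each library (x axis), for MRPL, small-subunit, assembly, translation factor and cytosolic RPL mRNAs. MRPL mRNAs stand at 0.58 and 0.48 in GST-Ferry 2 and 3 and at 0.15 in GST-Ferry 1, while cytosolic RPL mRNAs are low in both GST-Ferry 1 and GST 1.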

How the data were processed

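The authors deposited raw read counts per Ensembl gene ID for 6 libraries. The tools named in the submitters' processing notes are STAR 2.5.2b and bcl2fastq 2.19.1, with the build GRCh38.p13; the counting program, annotation and strand setting are not given in the sources used here. Per the file headers, columns are named control or sample with a number, which was read as GST or GST-Ferry and its replicate from the words alone, an assumption. Symbols came from a table of gene names and gene types, coordinates and transcripts from GENCODE 29. Genes were kept by filterByExpr (minimum count 10, minimum total 15), scaled with TMM factors and tested with edgeR 4.0.16 in R 4.3.3 (quasi-likelihood, two-sided, no covariate), with Benjamini-Hochberg adjustment over all 15546 genes tested; the fit was tested on simulated data. CPM are counts per 1000000 of the library total times its TMM factor, and 3 counts correspond to 0.287 to 1.22 CPM. SE comes from the fit.

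Whether the libraries of a bait came from different cultures is not in the labels, so the p-values cover the spread between these libraries alone, and it may be technical. The members and lists were chosen with earlier results of these data known. Named in full are the called members, the 6 highest and 6 lowest fold changes, the 4 most abundant per kilobase, members called under an alternative with all 6 libraries, and called or most changed members of the related lists. Same-numbered libraries did not deviate together throughout, so the replicate number was not used. Alternatives were RLE factors, library sizes alone, other filters, DESeq2 1.42.0, limma-voom (limma 3.58.1) with and without library weights, the replicate block, offsets for length and GC content (splines with 5 degrees of freedom), removal of the bait genes, libraries left out and a threshold of 0.1. Figures were drawn with matplotlib 3.10.9.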

Additional observations from a re-analysis of the deposited data

How the results depend on the processing

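The median log2 fold change of the MRPL mRNAs (0.36) was above 0 under all 17 alternatives and moved by less than the spread between libraries of one bait, except without GST 3 and GST-Ferry 1 (0.56). The number called enriched (2) was 0 with RLE size factors (0.0708% of all genes tested were then enriched), with library sizes alone (0.045%) and with limma-voom (0.0901%). It was 5 without a filter on low counts (1.29%), with DESeq2 (4.35%) and at a threshold of 0.1, 19 with library weights (10.4%), and 22 without GST 3 and GST-Ferry 1 (11.5%). With each library left out in turn it ran from 0 to 9, in fits that enriched 0% to 4.45% of all genes tested. None was called depleted in any of these fits. With RLE size factors, library sizes alone or limma-voom, 0 genes of the whole table were depleted. The same held without GST 2, GST-Ferry 2 or GST-Ferry 3, so those fits carry no information on this point. Over all genes, 92 were enriched as reported, 0 without GST-Ferry 2 (910 higher at an unadjusted p under 0.05) and 701 without GST 3. With the replicate block 3 MRPL mRNAs were called, MRPL37 beside MRPL41 and MRPL12, and over all genes 167 were enriched and 28 depleted, against 5 depleted as reported. Correlations between same-numbered libraries were 0.25, 0.08 and -0.13, and not every library correlated best with its own number.

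MRPL30 changed direction with limma-voom (0.0075), library weights (0.45), the replicate block (0.011), length and GC offsets (0.072), without GST 3 and GST-Ferry 1 (0.59), and without GST-Ferry 1 (0.00085) or GST 3 (0.43), and with each library left out in turn it ran from -0.39 to 0.43. MRPL42 did so with library weights (0.13), the offsets (0.15), without GST 3 (0.19, in a range of -0.59 to 0.19 with each library left out) and without GST 3 and GST-Ferry 1 (0.24), MRPL36 with library weights (0.011) and without GST 3 and GST-Ferry 1 (0.012), and MRPL50 with the offsets (0.055). Members near 0 also changed sign, MRPL33 under 6 alternatives (up to 0.19), MRPL35 under 4 (up to 0.19), MRPL38 under 2 (up to 0.14), MRPL20 without GST 3 (-0.0040) and MRPL47 without GST-Ferry 2 (-0.0019). The causes were not tested. The shallowest library, GST-Ferry 3, held a median of 123 counts per tested member, which limits the precision for MRPL38, MRPL46, MRPL23 and MRPL2.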

Other observations

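The RNAs of the mitochondrial ribosome itself varied more between libraries of one bait than between baits. MT-RNR2, the RNA of the large subunit, had 792, 118 and 94.5 CPM in GST-Ferry 1, 2 and 3, against 229, 84.5 and 251 CPM in GST 1, 2 and 3. MT-RNR1, that of the small subunit, had 209, 42.0 and 19.1 CPM in the GST-Ferry libraries and 45.2, 24.7 and 102 CPM in the GST libraries. Both were highest in GST-Ferry 1, and neither was called (edgeR quasi-likelihood F test, Benjamini-Hochberg adjusted p = 0.487 for MT-RNR2 and 0.586 for MT-RNR1). Ribosomal RNA was depleted before sequencing, so these values describe what was left after depletion. MT-TV, the transfer RNA for valine that is part of the human mitochondrial large subunit, had at most 1 count in any library.

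The 35 annotated MRPL pseudogenes held 0.0821% to 0.113% as many counts as the MRPL genes in the GST-Ferry libraries and 0.106% to 0.144% in the GST libraries. No pseudogene had more than 11 counts in a library, and none had enough reads to be tested.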
